A study of Homo sapiens with 34 samples.

Results

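The 9 genes described here send, receive, limit or report signals of transforming growth factor beta (TGF-beta) and of the bone morphogenetic proteins (BMPs). They are the ligand genes TGFB1, TGFB2 and BMP4, the receptor gene TGFBR2, the feedback regulators SMAD7, SKIL and PMEPA1, and the target genes ID1 and ID3. They were taken by symbol from a table of read counts for 26336 genes, in which each has 1 row. RNA of 4 human prostate cell lines had been sequenced after growth on tissue culture plastic or on a coating of amorphous calcium phosphate (called ACP), which mimics bone mineral. The 34 libraries form 17 groups, and levels are given as CPM, counts scaled to the size of the library.

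RWPE, labelled as non-tumorigenic prostate epithelium, was kept in serum-free keratinocyte medium with added growth factors. In this series LNCaP stands for early adenocarcinoma, and it was kept in RPMI with fetal bovine serum. VCaP, kept in a mixture of DMEM and F12 with serum, and MDAPCa2a, kept in a dedicated base medium with serum, are labelled as bone metastatic cells. Plastic for MDAPCa2a was coated with a commercial protein mix, while its ACP plates were not, so both surfaces differ in more than the mineral. No engineered genotype is given for any line, and each line stands for its own origin only. Control groups were grown in the line's own medium, stripped groups in medium whose serum had been treated with dextran-coated charcoal to remove steroids, and androgen groups in stripped medium with androgen at a labelled 100 mM. The titles call the androgen DHT and the treatment text calls it testosterone. LNCaP and VCaP were sampled as plastic control, plastic stripped, ACP control, ACP stripped and ACP androgen, MDAPCa2a as the same groups without ACP control, and RWPE as plastic control, ACP control and ACP androgen. In RWPE, whose own medium lists no serum, the androgen medium as the protocol describes it differs from control in more than the hormone. Each group held 2 libraries, except RWPE ACP androgen with 3 and VCaP plastic stripped with 1, which has no replicate. All groups carry the label day 4 except plastic control, which is labelled as continuous culture. The labels do not say whether libraries of a group came from separate cultures, so p-values measure only the spread between these libraries, which may be technical.

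As background, TGF-beta ligands bind the type II receptor TGFBR2, which activates a type I receptor and through it SMAD2 and SMAD3, whereas BMPs act through other type I receptors on SMAD1, SMAD5 and SMAD9. SMAD7 blocks the activated receptors, SKIL (also called SnoN) represses SMAD target genes in the nucleus, and PMEPA1 holds SMAD proteins away from the receptor; all 3 are themselves induced by the pathway. PMEPA1 was also described as an androgen-induced gene of the prostate. ID1 and ID3 encode inhibitors of basic helix-loop-helix transcription factors and are direct targets of BMP-activated SMADs. Mineralised bone stores TGF-beta and BMPs and is a frequent site of prostate cancer metastasis.

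ID1 and ID3 varied together over a wide range of levels, and their promoters are shown for that reason. The stretches are the 250 bases before the RefSeq transcription start in GRCh38.p14, at chr20:31605039-31605288 on the plus strand for ID1 and chr1:23559502-23559751 on the minus strand for ID3. The build named in the submitters' processing notes is hg19, so the windows were joined to the counts by symbol only.
ID1: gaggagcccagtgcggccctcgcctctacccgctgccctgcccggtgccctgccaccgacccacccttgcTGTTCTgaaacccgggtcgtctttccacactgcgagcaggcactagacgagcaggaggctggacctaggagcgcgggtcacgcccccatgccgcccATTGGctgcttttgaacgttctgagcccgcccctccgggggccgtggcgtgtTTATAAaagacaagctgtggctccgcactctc
ID3: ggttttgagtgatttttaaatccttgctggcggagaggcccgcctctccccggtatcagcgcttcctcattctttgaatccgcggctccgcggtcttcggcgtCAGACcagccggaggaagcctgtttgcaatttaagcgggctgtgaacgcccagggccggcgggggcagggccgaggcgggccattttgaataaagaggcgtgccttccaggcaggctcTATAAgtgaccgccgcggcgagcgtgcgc
Capitals mark matches to motifs searched on both strands. In ID1 they are TGTTCT, the reverse complement of the androgen receptor half-site AGAACA, starting 180 bases before the transcription start, ATTGG, the reverse complement of the CCAAT box, at 84 bases, and TTATAA, which holds the TATA box letters TATAA once on each strand, at 32 bases. In ID3 they are the SMAD-binding letters CAGAC at 147 bases and TATAA at 29 bases. Of 35116 promoter windows of this length, 12.4% hold AGAACA, 32.0% ATTGG, 18.9% TATAA and 38.0% CAGAC. The GC-rich SMAD element GGCGCC, found in 16.4% of windows, and the palindrome GTCTAGAC, found in 0.182%, have no match in either stretch. These are matches of letters and carry no statement on binding.

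Libraries held 15440141 to 44779246 counts, with at least 34947115 in a plastic control library and at most 37015516 in any other. The summed level of 4 epithelial markers (EPCAM, KRT8, KRT18 and CDH1) was 1181 to 3221 CPM in all 34 libraries. Basal markers summed to 3358 to 15852 CPM in RWPE and to at most 37.3 CPM in a library of the other lines, while luminal markers summed to at most 39.1 CPM in RWPE and to 259 to 14382 CPM in the others. Fibroblast markers summed to at most 162 CPM, endothelial markers to 36.8 CPM, leukocyte markers to 114 CPM and osteoblast markers to 6.70 CPM in any library. The liver transcript FGG was at 1.41 to 2.83 CPM in the 8 plastic control libraries and at most 0.0324 CPM in the 26 others. The summed level of 6 liver markers was 13.2 to 14.2 CPM in RWPE plastic control against at most 0.594 CPM in the other RWPE libraries, and 12.3 to 17.4 against 1.68 to 7.08 CPM in LNCaP. In VCaP it was 69.5 to 156 CPM in plastic control and 35.4 to 377 CPM elsewhere, and in MDAPCa2a 5.73 to 11.3 and at most 0.685 CPM. The labels used here name no library batch. In the comparisons of lines on plastic in control medium, all libraries are plastic control. Each line was in its own medium there and plastic for MDAPCa2a was coated, so line and culture conditions cannot be told apart. Where plastic control is compared with another kind of group, the group and whatever else sets these libraries apart cannot be told apart. The part of this in the results was not tested. In these bulk samples, fewer cells expressing a gene and less RNA per cell cannot be told apart either.

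**Figure D1:**
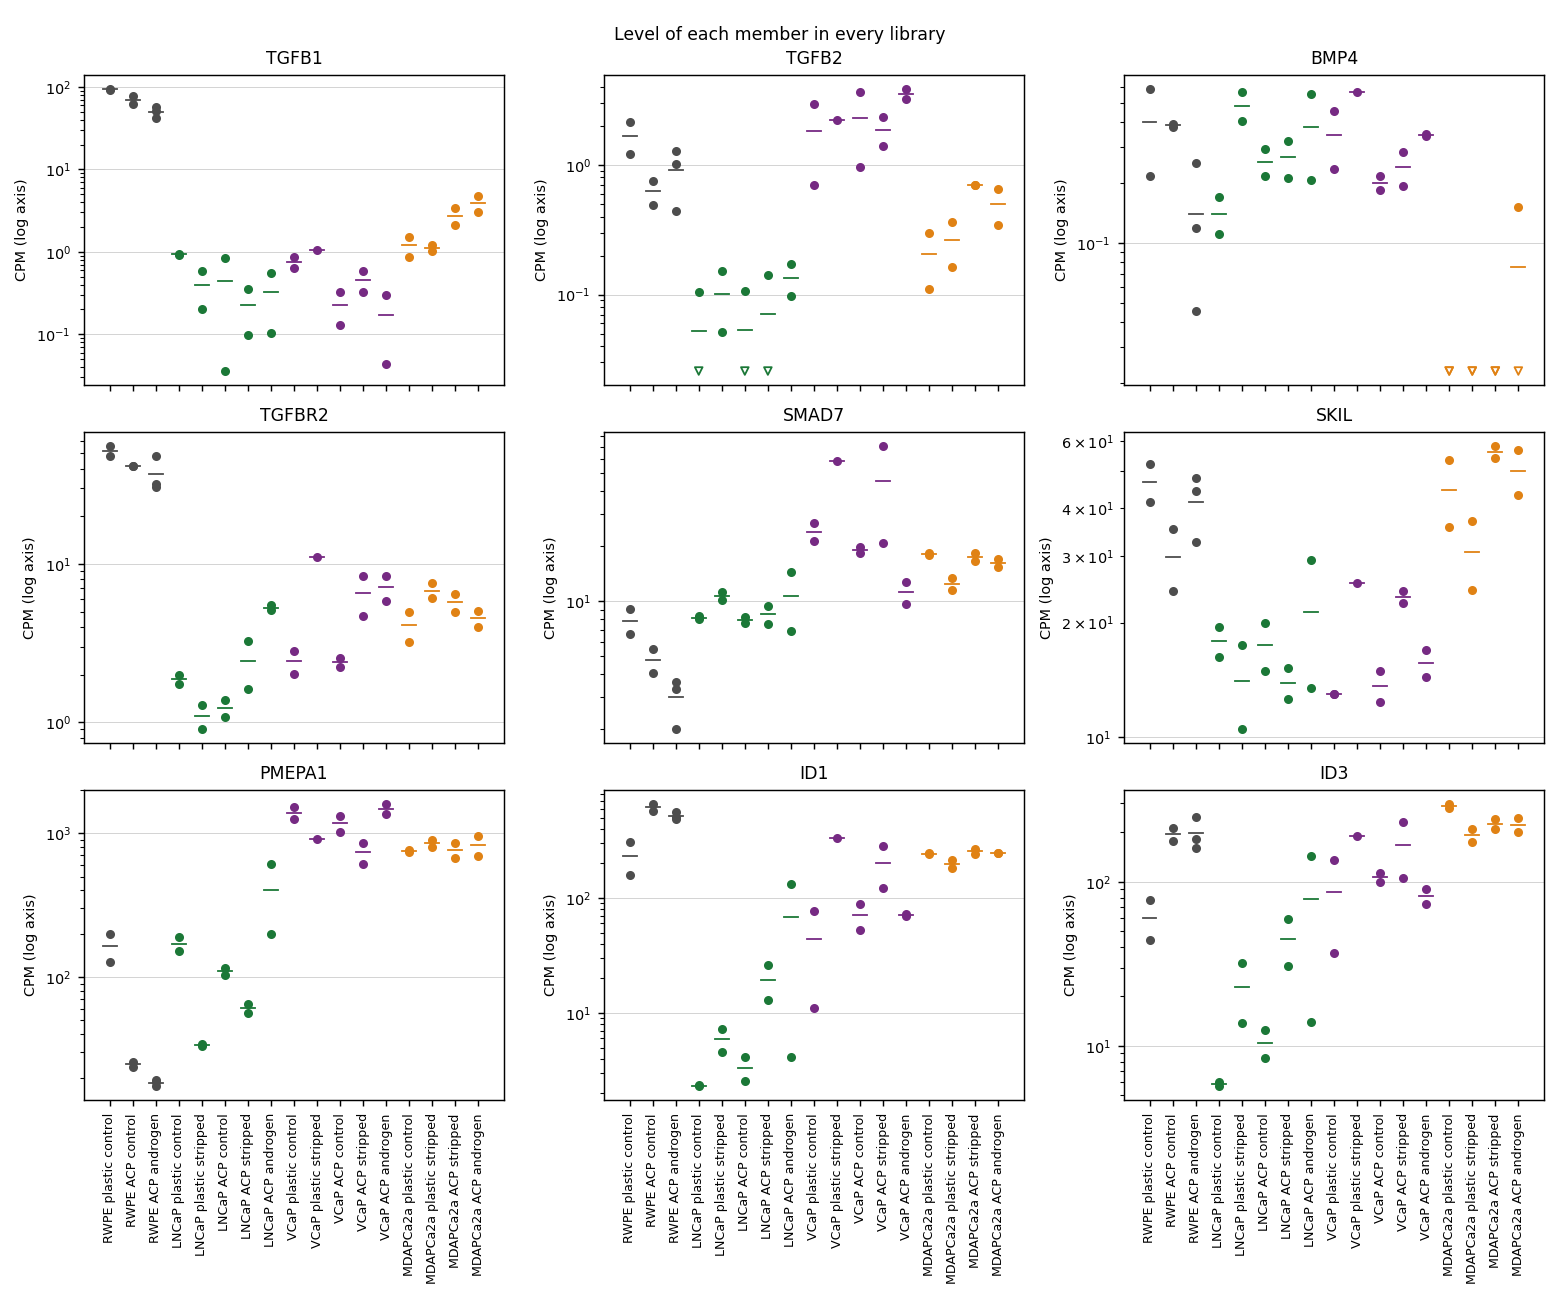
CPM of each gene (log axis, a scale of its own in each panel) in every library of the 17 groups, with points for libraries, bars for group means and open triangles for libraries with 0 reads. TGFB1 and TGFBR2 lie far higher in RWPE than in the other lines, PMEPA1 reaches its highest levels in VCaP, and ID1 and ID3 spread widest in LNCaP and VCaP.

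Among the ligands, TGFB1, which encodes a TGF-beta, was far higher in RWPE than in the cancer lines. Its level there was 41.6 to 95.2 CPM with a median of 62.8 CPM over 7 libraries. It stayed at or below 0.952 CPM in 10 LNCaP libraries and at or below 1.04 CPM in 9 VCaP libraries. MDAPCa2a had 0.872 to 4.74 CPM over 8 libraries, which overlaps with both. The lowest RWPE library was above the highest library of every other line. In the order of the 17 group means, from 93.1 CPM in RWPE plastic control down to 0.172 CPM in VCaP ACP androgen, 7 of 16 neighbouring pairs did not overlap between libraries. In this order and those given below, VCaP plastic stripped is 1 library with no range, so pairs with it separate more easily. No such count was made over all genes.

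TGFB2, a second TGF-beta ligand, was low everywhere and highest in VCaP, at 0.703 to 3.88 CPM with a median of 2.32 CPM. RWPE had 0.439 to 2.15 CPM, MDAPCa2a 0.111 to 0.698 CPM and LNCaP 0 to 0.173 CPM, with 3 LNCaP libraries at 0 reads. None of the 16 neighbouring pairs of group means was free of overlap. BMP4, a bone morphogenetic protein, was at 0.0457 to 0.589 CPM in RWPE, 0.111 to 0.566 CPM in LNCaP and 0.183 to 0.567 CPM in VCaP, ranges that overlap. In MDAPCa2a, 7 of 8 libraries had 0 BMP4 reads and the other had 0.151 CPM. At these levels each BMP4 value rests on few reads and has a wide counting error. BMP4 passed the filter on low counts in the fits of LNCaP, VCaP and all lines but not in those of RWPE and MDAPCa2a alone, TGFB2 passed in all but that of LNCaP alone, and the other 7 genes passed throughout.

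The receptor gene TGFBR2 followed TGFB1 in being far higher in RWPE. It was at 30.6 to 55.4 CPM in RWPE, with a median of 41.9 CPM, and at 0.910 to 5.49 CPM in LNCaP. VCaP had 2.02 to 11.0 CPM and MDAPCa2a 3.21 to 7.54 CPM. The 3 cancer lines overlapped with one another, and none of their libraries reached the lowest RWPE library. Of the 16 neighbouring pairs in the order of group means, 6 did not overlap.

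The feedback regulators were distributed otherwise. SMAD7 was lowest in RWPE (2.01 to 9.04 CPM) and highest in VCaP (9.71 to 70.4 CPM), with LNCaP at 6.91 to 14.5 CPM and MDAPCa2a at 11.5 to 18.4 CPM. RWPE overlapped with LNCaP in SMAD7, and VCaP overlapped with LNCaP and MDAPCa2a. SKIL was higher in RWPE (24.2 to 52.3 CPM) and MDAPCa2a (24.3 to 58.2 CPM) than in LNCaP (10.5 to 29.2 CPM) and VCaP (12.4 to 25.4 CPM), with overlap at the edges. The 1 of 16 neighbouring pairs of SKIL group means without overlap was VCaP plastic stripped, with 1 library, above VCaP ACP stripped. PMEPA1 had the largest differences between lines of these 3 regulators. VCaP held 610.0 to 1596 CPM of PMEPA1 and MDAPCa2a 674 to 949.5 CPM, while LNCaP ran from 33.4 to 608 CPM and RWPE from 17.4 to 199 CPM. For PMEPA1, 9 of 16 neighbouring pairs of group means did not overlap, and for SMAD7 6 did not.

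The BMP targets ID1 and ID3 varied less in MDAPCa2a than in the other lines. Its 8 libraries held 182 to 265 CPM of ID1 (a 1.46-fold range) and 176 to 298 CPM of ID3 (1.70-fold). SMAD7 and PMEPA1 had similar ranges there, 1.60-fold and 1.41-fold. ID1 and ID3 varied most in LNCaP, with 2.29 to 133 CPM of ID1 and 5.66 to 144 CPM of ID3 over 10 libraries. VCaP libraries ran from 11.1 to 336 CPM of ID1 and from 36.6 to 231 CPM of ID3. In RWPE, ID1 was at 160.0 to 658 CPM and ID3 at 43.9 to 249.9 CPM. In the order of 17 group means, from RWPE ACP control at 617 CPM down to LNCaP plastic control at 2.32 CPM, 8 of 16 neighbouring pairs did not overlap for ID1. For ID3, from 289 CPM in MDAPCa2a plastic control down to 5.84 CPM in LNCaP plastic control, 3 of 16 pairs did not.

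**Figure D2:**
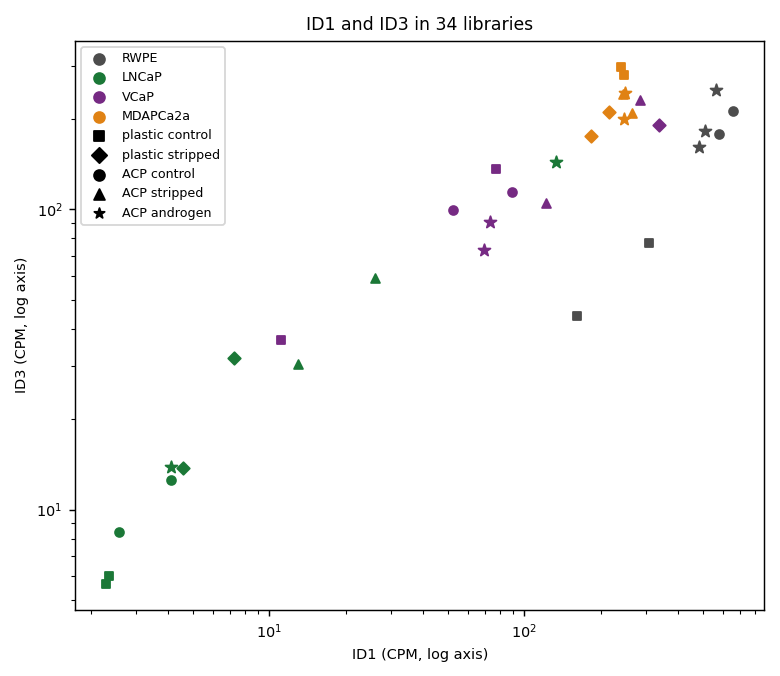
ID1 against ID3 (CPM, both axes logarithmic) in the 34 libraries, coloured by line and shaped by group. The points follow a common rise from LNCaP to MDAPCa2a, and the 7 RWPE libraries lie to the right of it, with more ID1 beside a given level of ID3 than the libraries of the other lines.

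Across the 17 group means, the log2 CPM of ID1 and ID3 had a Pearson r of 0.94. ID3 was the gene most like ID1 among 13215 genes with a group mean of at least 5 CPM, and ID1 was the second most like ID3 after RCBTB2, also at r = 0.94. The other profiles most like each gene were INPP5D (r = 0.97) and ABLIM1 (0.96) for TGFB1, LMCD1 (0.96) and EMILIN2 (0.96) for TGFB2, and PJA1 (0.93) and MAPRE2 (0.93) for BMP4. TGFBR2 was most like SH3GLB1 (0.96) and ZFP36 (0.96), SMAD7 most like MYO5B (0.97) and NCOA2 (0.97), SKIL most like GOPC (0.94) and CHD9 (0.93), and PMEPA1 most like RAB3B (0.96) and GOLGA4 (0.95). DYNC1I2 (0.93) came second for ID1. Among the 9 genes, TGFB1 and TGFBR2 had r = 0.83 and SMAD7 and PMEPA1 r = 0.77, while TGFB1 and PMEPA1 had r = -0.44. These values describe group means that share lines and libraries.

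The lines were set against each other on plastic in control medium, using the 8 plastic control libraries only. Each line was in its own medium, so line and medium cannot be told apart. Against RWPE, LNCaP had less TGFB1, TGFB2, TGFBR2, SKIL, ID1 and ID3, so that 6 of 9 genes passed the test, all lower, where 57.4% of 17323 genes passed (27.9% lower). TGFB1 was at 0.905 and 0.952 CPM in LNCaP against 95.2 and 90.9 CPM in RWPE, a log2 difference of -6.62 ± 0.57 (SE, adjusted p 4.84e-10, edgeR's quasi-likelihood test). TGFBR2 was at 1.98 and 1.75 CPM against 48.4 and 55.4 CPM (log2 -4.78 ± 0.36, adjusted p 3.33e-11). ID1 was at 2.29 and 2.35 CPM against 160.0 and 308 CPM (log2 -6.63 ± 1.01, adjusted p 4.16e-06). No library of one line reached the other for these 3 genes. The median log2 difference of the 9 genes was -3.35 and that of all genes 0.01. PMEPA1 and SMAD7 differed by less than the spread, at log2 0.08 ± 0.31 and 0.08 ± 0.37.

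VCaP too had less TGFB1 and TGFBR2 than RWPE, but more of 2 regulators. In all, 6 of 9 genes passed, with SMAD7 and PMEPA1 higher and TGFB1, TGFBR2, SKIL and ID1 lower, where 62.4% of all genes passed. PMEPA1 was at 1249 and 1523 CPM in VCaP against 128 and 199 CPM in RWPE (log2 3.10 ± 0.33, adjusted p 1.57e-08). SMAD7 was at 21.3 and 26.8 CPM against 6.61 and 9.04 CPM (log2 1.64 ± 0.37, adjusted p 4.78e-04). The VCaP libraries were far apart for ID1, at 11.1 and 77.3 CPM: the call was lost without VCaP plastic control replicate 1 or RWPE plastic control replicate 2, and its log2 difference ran from -4.39 to -1.57 over the fits without 1 library. The median log2 difference of the 9 genes was -0.19 and that of all genes 0.04.

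MDAPCa2a against RWPE had 3 genes higher (SMAD7, PMEPA1 and ID3) and 4 lower (TGFB1, TGFB2, BMP4 and TGFBR2), 7 of 9 where 56.7% of all genes passed. PMEPA1 was at 743 and 770.1 CPM, against 128 and 199 CPM in RWPE (log2 2.22 ± 0.32, adjusted p 2.04e-06). ID3 was at 280.2 and 298 CPM against 43.9 and 77.1 CPM (log2 2.26 ± 0.65, adjusted p 0.00431). The ID3 call, like that of SMAD7, was lost without RWPE plastic control replicate 1 (log2 1.88 to 2.73 for ID3), and that of TGFB2 without MDAPCa2a plastic control replicate 2. ID1 overlapped between both lines. BMP4 had 0 reads in both MDAPCa2a libraries, for which 3 reads over the group set a limit of 0.0432 CPM. That limit lay 9.40-fold below the pooled level in RWPE, 3.24-fold below that in LNCaP and 8.24-fold below that in VCaP. Those pooled levels rest on 31, 13 and 27 reads and were taken as measured. The folds therefore cover counting error in MDAPCa2a only, and smaller folds are possible.

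**Figure D3:**
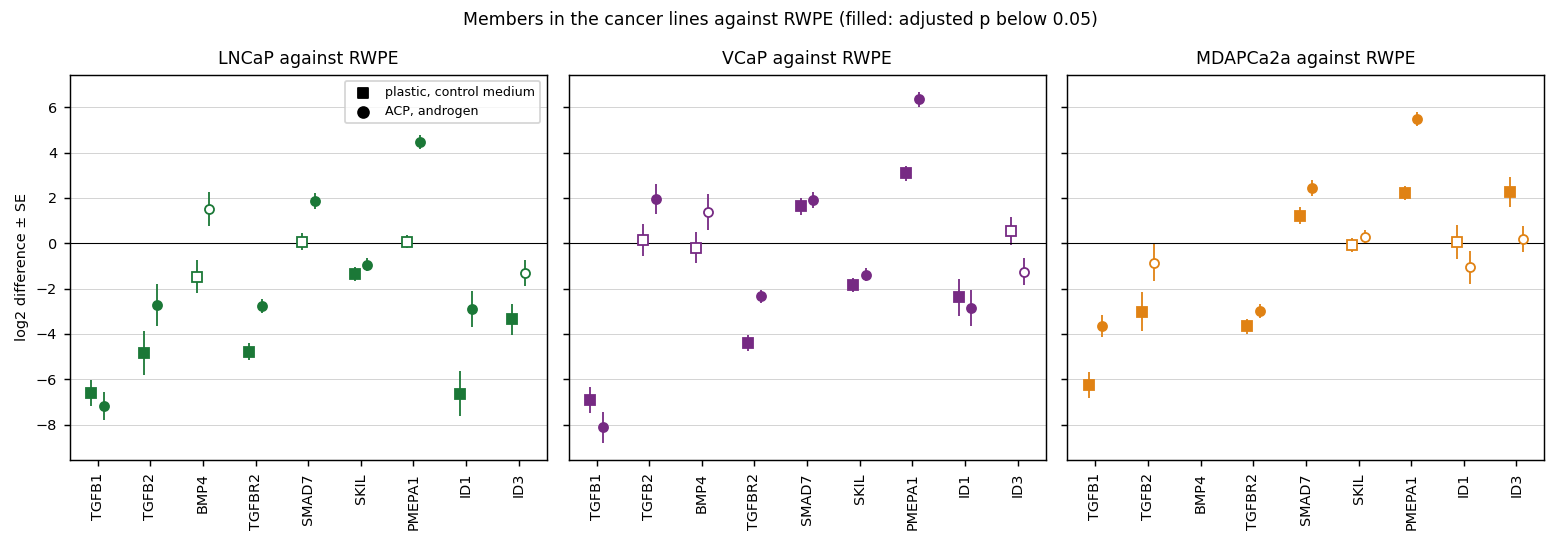
Log2 difference ± SE of each gene between a cancer line and RWPE, on plastic in control medium (squares) and on ACP with androgen (circles), filled where the adjusted p is below 0.05. TGFB1 and TGFBR2 are filled and below 0 in all 6 comparisons and PMEPA1 is filled and above 0 in 5 of 6. BMP4 in MDAPCa2a, where libraries had 0 reads, is left out.

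Between the cancer lines on plastic, ID1 and ID3 were lowest in LNCaP. Other genes tied to BMP signals were divided. ID2 and SMAD9 were lower in LNCaP than in VCaP and MDAPCa2a. SMAD6 was at 4.91 and 3.25 CPM in LNCaP, between the 2.43 and 11.8 CPM of VCaP. BAMBI, a decoy receptor gene, was at 19.5 and 16.8 CPM in LNCaP against 7.97 and 5.87 CPM in MDAPCa2a. VCaP against LNCaP had 5 of 9 genes past the test, all higher (TGFB2, SMAD7, PMEPA1, ID1 and ID3), where 52.6% of all genes passed and 27% passed higher. MDAPCa2a against LNCaP had 6 higher (TGFBR2, SMAD7, SKIL, PMEPA1, ID1 and ID3) and BMP4 lower, where 40.2% passed. ID1 was at 245 and 239 CPM in MDAPCa2a against 2.29 and 2.35 CPM in LNCaP (log2 6.69 ± 1.01, adjusted p 7.60e-06), and ID3 at 280.2 and 298 CPM against 5.66 and 6.02 CPM (log2 5.62 ± 0.76, adjusted p 1.57e-06). VCaP against MDAPCa2a had TGFB2, BMP4 and PMEPA1 higher and SKIL, ID1 and ID3 lower, 6 of 9 where 52.4% passed. Several of these calls depended on single libraries. For VCaP against MDAPCa2a, ID1 was lost without VCaP plastic control replicate 1 (log2 -4.44 to -1.63), ID3 without that library or either MDAPCa2a one (log2 -2.97 to -1.07), PMEPA1 without VCaP plastic control replicate 2 or either MDAPCa2a library (log2 0.73 to 1.03), and TGFB2 without replicate 2 of either line (log2 1.77 to 4.00). For MDAPCa2a against LNCaP, BMP4 was lost without either MDAPCa2a library, TGFBR2 without LNCaP replicate 2 or MDAPCa2a replicate 1, and SMAD7 without either LNCaP library or MDAPCa2a replicate 2. Of 80 further pathway genes tested (from a list described with the androgen effect), 23 were higher and 33 lower in LNCaP than in RWPE, 34 higher and 27 lower in VCaP, and 28 higher and 30 lower in MDAPCa2a, beside 57.4%, 62.4% and 56.7% of all genes in either direction. These 6 line comparisons share their groups, so their counts are not independent of each other. With 40.2% to 62.4% of all genes past the test, the counts are read as no result about the 9 genes.

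On ACP with androgen the same lines were compared in 9 other libraries, none of them plastic control. Line and medium cannot be told apart here either. LNCaP against RWPE had 7 of 9 genes past the test (SMAD7 and PMEPA1 higher, TGFB1, TGFB2, TGFBR2, SKIL and ID1 lower), where 66.9% of all genes passed. VCaP against RWPE had 7 (TGFB2, SMAD7 and PMEPA1 higher, TGFB1, TGFBR2, SKIL and ID1 lower; 67.4% of all genes) and MDAPCa2a against RWPE had 4 (SMAD7 and PMEPA1 higher, TGFB1 and TGFBR2 lower; 64% of all genes). PMEPA1 in RWPE was at 17.4, 18.6 and 19.4 CPM here, against 1596 and 1361 CPM in VCaP (log2 6.35 ± 0.33, adjusted p 2.49e-14) and 608 and 199.98 CPM in LNCaP (log2 4.47 ± 0.30, adjusted p 3.69e-12). TGFB1 was at 41.6, 51.4 and 56.8 CPM in RWPE against 4.74 and 3.06 CPM in MDAPCa2a (log2 -3.66 ± 0.49, adjusted p 4.56e-07). No library of RWPE overlapped with these. VCaP against LNCaP had 2 higher (TGFB2 and PMEPA1, where 56% of all genes passed and 28.5% passed higher), MDAPCa2a against LNCaP 3 higher (TGFB1, SKIL and PMEPA1, where 45.3% passed and 21.3% passed higher), and VCaP against MDAPCa2a 2 higher (TGFB2 and PMEPA1) and 2 lower (TGFB1 and SKIL; 51.4%). Without LNCaP ACP androgen replicate 1, 7 genes passed for MDAPCa2a against LNCaP and 4 for VCaP against LNCaP, and without replicate 2 of that group 1 passed for MDAPCa2a against LNCaP. Without MDAPCa2a ACP androgen replicate 1, 2 passed for VCaP against MDAPCa2a. For LNCaP against RWPE, the TGFB2 call was lost without RWPE replicate 3 or LNCaP replicate 2 (log2 -3.16 to -2.29) and the SKIL call without LNCaP replicate 2 (log2 -1.61 to -0.50). For VCaP against RWPE, TGFB2 was lost without VCaP replicate 2 (log2 1.71 to 2.39). For MDAPCa2a against LNCaP, SKIL was lost without LNCaP replicate 2 (log2 0.79 to 1.90) and PMEPA1 without that library or MDAPCa2a replicate 2 (log2 0.44 to 2.04). For VCaP against MDAPCa2a, TGFB2 was lost without MDAPCa2a replicate 1 (log2 2.44 to 3.36) and PMEPA1 without that library or VCaP replicate 1 (log2 0.64 to 1.10). With 45.3% to 67.4% of all genes past the test, these counts are read as no result about the 9 genes.

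Adding androgen to stripped medium on ACP raised PMEPA1 in LNCaP and VCaP and lowered SMAD7 in VCaP. In LNCaP, PMEPA1 was at 56.4 and 64.9 CPM in stripped medium and at 608 and 199.98 CPM with androgen. Both androgen libraries lay above both stripped libraries, though 3.04-fold apart from each other, and the log2 change was 2.73 ± 0.39 (adjusted p 0.00236; 1.70 to 3.33 without 1 library). With edgeR PMEPA1 was the only one of 8 tested genes to pass, and DESeq2 called TGFBR2 as well, where 7.73% of 14656 genes passed with edgeR, and TGFB2 had too few reads to be tested. Without LNCaP ACP androgen replicate 1, 2 genes passed, and without replicate 2 of that group 5 did. The median log2 change of the 8 was 0.72 and of all genes -0.01. TGFBR2 went from 1.62 and 3.27 CPM to 5.49 and 5.10 CPM without passing in edgeR (log2 1.11 ± 0.35, adjusted p 0.0760). ID1 was at 26.0 and 13.0 CPM in stripped medium and at 133 and 4.12 CPM with androgen, so the androgen libraries lay on both sides of the stripped ones (log2 1.82 ± 0.97, adjusted p 0.284).

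In VCaP, PMEPA1 was at 860.0 and 610.0 CPM in stripped medium and at 1596 and 1361 CPM with androgen (log2 1.01 ± 0.25, adjusted p 0.0224). SMAD7 was at 70.4 and 20.9 CPM in stripped medium and at 12.7 and 9.71 CPM with androgen (log2 -2.03 ± 0.46, adjusted p 0.0168). Groups did not overlap for either gene. These 2 of 9 genes passed, 1 in each direction, where 17.5% of 15614 genes passed. The median log2 change was -0.58 over the 9 genes and -0.03 over all genes. Both calls depended on single libraries: SMAD7 fell by 0.85 on the log2 scale without VCaP ACP stripped replicate 1 and passed in 1 of 4 fits without 1 library (the call was lost also without either androgen library), and PMEPA1 passed in 1 of 4 as well, being lost without VCaP ACP stripped replicate 2 or either androgen library (log2 0.77 to 1.33). ID1 and ID3 were lower in both androgen libraries than in both stripped ones, at 69.4 and 73.0 against 285 and 121 CPM for ID1 and 73.2 and 90.3 against 231 and 105 CPM for ID3, and neither passed (adjusted p 0.151 and 0.181).

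In MDAPCa2a, none of 8 tested genes passed and none of 13626 genes did (0%). At an unadjusted p below 0.05, edgeR gave 0 of the 8 and DESeq2 called 0. PMEPA1 was at 674 and 859.6 CPM in stripped medium and at 694 and 949.5 CPM with androgen, which overlap (log2 0.07 ± 0.20). ID1 was at 244 and 265 CPM and then at 247 and 245 CPM (log2 -0.08 ± 0.15).

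The difference between lines in the androgen effect was tested as an interaction. The PMEPA1 effect was smaller in VCaP than in LNCaP (log2 -1.74 ± 0.44, adjusted p 0.0119) and smaller in MDAPCa2a than in LNCaP (log2 -2.64 ± 0.44, adjusted p 0.00168). The SMAD7 effect in VCaP minus that in LNCaP was log2 -2.37 ± 0.52 (adjusted p 0.00489), and minus that in MDAPCa2a log2 -1.92 ± 0.52 (adjusted p 0.0236). These are 2 of 9 genes for VCaP against LNCaP (5 without LNCaP ACP androgen replicate 2, 0 without VCaP ACP stripped replicate 1) where 10.9% of 17323 genes passed and 5.51% passed lower, 1 of 9 (PMEPA1) for MDAPCa2a against LNCaP where 1.12% passed, and 1 of 9 (SMAD7) for VCaP against MDAPCa2a where 7.86% passed. Both SMAD7 differences were lost without VCaP ACP stripped replicate 1, at log2 -1.25 and -0.76, and that against MDAPCa2a also without VCaP ACP androgen replicate 2 or without MDAPCa2a ACP stripped replicate 1 or androgen replicate 2. The PMEPA1 difference between VCaP and LNCaP was lost without LNCaP ACP stripped replicate 1, LNCaP ACP androgen replicate 1, VCaP ACP stripped replicate 1 or VCaP ACP androgen replicate 2 (log2 -2.32 to -0.73), and that between MDAPCa2a and LNCaP held in all 8 fits without 1 library.

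Of 88 further genes of the pathway, listed by role, 66 were tested in LNCaP, and androgen raised 5 (BMPR1A, BMPR1B, NEDD4L, WWP1 and SNAI2) and lowered 1 (BMP6), a share near the 7.73% of all genes called. BMPR1B, a type I receptor for BMPs, rose in both LNCaP, where stripped medium gave a mean of 14.0 CPM and androgen 96.0 CPM (log2 2.77 ± 0.27, adjusted p 2.55e-04), and VCaP, where the means were 27.8 and 103.7 CPM (log2 1.90 ± 0.19, adjusted p 8.06e-04). In VCaP, 6 of 73 were higher (GDF11, GDF15, BMPR1B, ENG, JUNB and SNAI2) and 12 lower, among them 3 genes for handling of latent ligand (LTBP1, LTBP3 and LTBP4), SMAD1 and SMAD3, where 17.5% of all genes passed. INHBB, which encodes an activin and inhibin subunit, fell from 48.7 to 10.8 CPM there (log2 -2.17 ± 0.30, adjusted p 0.00254). In MDAPCa2a 0 of 63 passed with edgeR, 4 reached an unadjusted p below 0.05, while DESeq2 called 0. The BMPR1B effect was smaller in MDAPCa2a than in LNCaP (log2 -3.01 ± 0.33, adjusted p 9.15e-06).

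**Figure D4:**
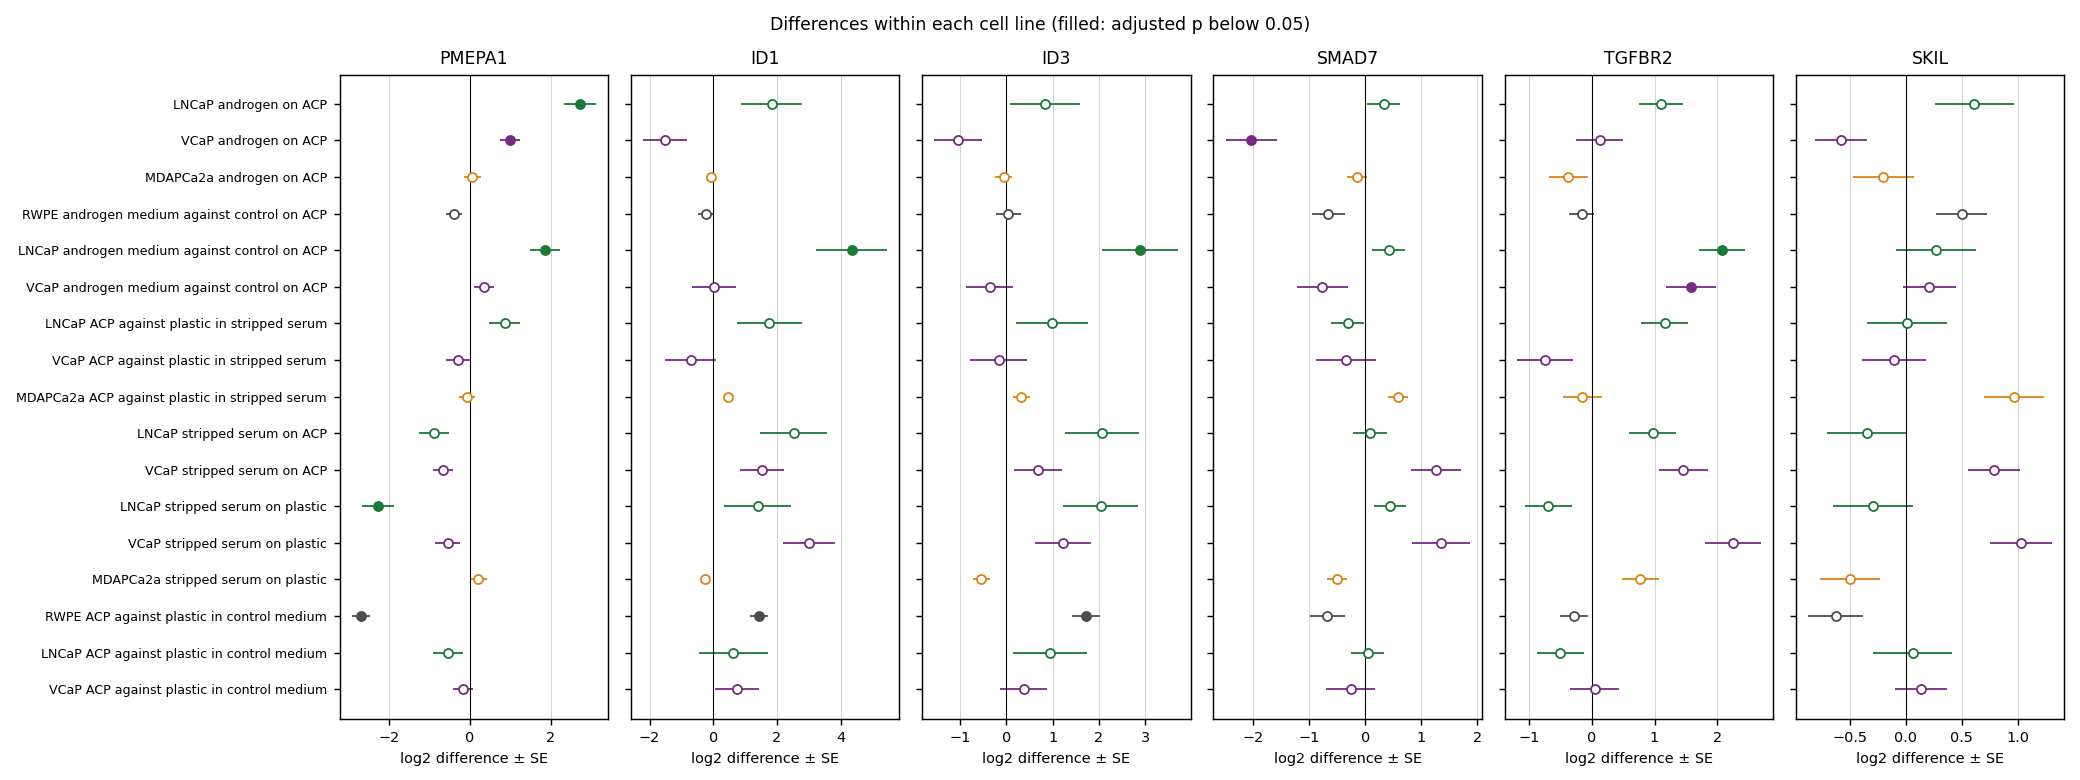
Log2 difference ± SE of 6 genes in the 17 comparisons within a line, filled where the adjusted p is below 0.05. PMEPA1 has filled points in 5 comparisons, while SKIL has none.

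Androgen medium was also compared with the line's own control medium on ACP, which asks how far the hormone-supplemented culture differed from standard culture. These media differ in serum stripping as well as in androgen. In LNCaP, TGFBR2, PMEPA1, ID1 and ID3 were higher in androgen medium than in control medium. These are 4 of 8 tested genes, where 15.1% of 14656 genes passed and 7.76% passed higher. The median log2 difference was 1.21 over the 8 genes and -0.01 over all genes. TGFBR2 was at 1.07 and 1.39 CPM in control and 5.49 and 5.10 CPM in androgen medium (log2 2.08 ± 0.37, adjusted p 0.00529; 1.92 to 2.25 without 1 library). PMEPA1 was at 104 and 116 CPM and then at 608 and 199.98 CPM (log2 1.86 ± 0.38, adjusted p 0.00928), and its call was lost without LNCaP ACP control replicate 1, with a log2 change of 0.83 to 2.45 over the fits without 1 library. Neither gene overlapped between groups. ID1 was at 4.11 and 2.56 CPM in control and at 133 and 4.12 CPM in androgen medium (log2 4.34 ± 1.11, adjusted p 0.0241). ID3 was at 12.6 and 8.39 CPM and then at 144 and 13.9 CPM (log2 2.89 ± 0.82, adjusted p 0.0372). For both genes androgen replicate 2 lay barely above the higher control library. It lay below both libraries of stripped medium on ACP, at 26.0 and 13.0 CPM of ID1 and 59.0 and 30.5 CPM of ID3. Without LNCaP ACP androgen replicate 1, the log2 changes were 0.26 for ID1 and 0.36 for ID3 and neither passed, nor did they without either control library.

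In VCaP, TGFBR2 was the 1 gene of 9 to pass, where 5.99% of 15614 genes passed. It was at 2.25 and 2.54 CPM in control and 5.87 and 8.36 CPM in androgen medium on ACP (log2 1.58 ± 0.39, adjusted p 0.0447). The groups did not overlap, but leaving out any 1 of the 4 libraries ended the call (log2 1.30 to 1.81). VCaP in stripped medium on ACP, without androgen, had TGFBR2 at 8.37 and 4.69 CPM, which overlaps with its androgen libraries. In RWPE, none of 8 tested genes passed with edgeR, where 19.1% of 14293 genes passed. TGFB1 alone reached an unadjusted p below 0.05, DESeq2 called 0, and without RWPE ACP androgen replicate 3, 2 genes passed. TGFB1 was at 76.6 and 62.8 CPM in control and at 41.6, 51.4 and 56.8 CPM in androgen medium (log2 -0.46 ± 0.17, adjusted p 0.0798), and PMEPA1 at 23.9 and 25.5 CPM and then at 17.4, 18.6 and 19.4 CPM (log2 -0.40 ± 0.20, adjusted p 0.169). Of the further pathway genes, 1 of 71 was higher (THBS1) and 11 lower in RWPE, among them SMAD3, a mediator of TGF-beta signals, from 99.4 to 49.1 CPM (log2 -0.999 ± 0.203, adjusted p 0.0175). The SMAD3 call was lost without either RWPE ACP control library (log2 -1.21 to -0.84). In LNCaP 8 of 66 were higher and 2 lower, where 15.1% of all genes passed, and in VCaP 3 of 73 were higher and 2 lower, where 5.99% passed. The LNCaP and VCaP androgen groups here are the same libraries as in the comparison with stripped medium.

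Serum stripping lowered PMEPA1 in LNCaP on plastic. It was at 189 and 152 CPM in control and at 33.4 and 34.5 CPM in stripped medium (log2 -2.27 ± 0.39, adjusted p 0.00480; -2.41 to -2.11 without 1 library, with the call lost without LNCaP plastic stripped replicate 1). PMEPA1 was the 1 of 8 tested genes to pass, where 9.45% of all genes passed. The FGG reads described above mark the control libraries of this comparison. On ACP, free of those libraries, PMEPA1 was at 104 and 116 CPM in control and at 56.4 and 64.9 CPM in stripped medium, again without overlap, and did not pass (log2 -0.88 ± 0.37, adjusted p 0.200). ID1 was at 4.11 and 2.56 CPM in control and at 26.0 and 13.0 CPM in stripped medium on ACP (log2 2.52 ± 1.05, adjusted p 0.193), and ID3 at 12.6 and 8.39 CPM and then at 59.0 and 30.5 CPM (log2 2.07 ± 0.80, adjusted p 0.163). None of 8 tested genes passed with edgeR on ACP, where 5.37% of all genes passed. In that comparison 4 (TGFBR2, PMEPA1, ID1 and ID3) reached an unadjusted p below 0.05, while DESeq2 called 0.

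In VCaP, stripping gave 0 of 9 genes past edgeR's threshold on ACP, where 0.82% of all genes passed, and 0 of 9 on plastic, where 0.89% passed. There were 4 genes in each at an unadjusted p below 0.05; DESeq2's calls were TGFBR2 on ACP and TGFBR2 and SKIL on plastic. TGFBR2 was at 2.25 and 2.54 CPM in control and at 8.37 and 4.69 CPM in stripped medium on ACP (log2 1.46 ± 0.39, adjusted p 0.107). On plastic it was at 2.02 and 2.83 CPM in control and at 11.0 CPM in the only stripped library (log2 2.25 ± 0.44, adjusted p 0.0503), a test in which that library is taken to vary like the other groups. SKIL was at 14.9 and 12.4 CPM and then at 24.2 and 22.5 CPM on ACP (log2 0.79 ± 0.23, adjusted p 0.135). In the fit of all lines, 2 genes passed on each surface; without VCaP ACP stripped replicate 2, 1 gene passed on ACP, and without VCaP plastic control replicate 2, 2 passed on plastic. In MDAPCa2a on plastic, 0 of 8 passed with edgeR, where 1.58% of all genes passed, 3 (TGFBR2, SMAD7 and ID3) had an unadjusted p below 0.05, with 0 called by DESeq2. Its ID3 was at 280.2 and 298 CPM in control and at 211 and 176 CPM in stripped medium (log2 -0.54 ± 0.18, adjusted p 0.194).

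Among the further pathway genes, BMPR1B was lower after stripping in LNCaP on plastic, with a mean of 35.5 CPM in control and 3.48 CPM in stripped medium (log2 -3.32 ± 0.29, adjusted p 1.17e-04), as it was in VCaP on ACP (66.9 and 27.8 CPM, log2 -1.26 ± 0.19, adjusted p 0.0327). In LNCaP on plastic 7 of 66 passed, all lower, where 9.45% of all genes passed, and on ACP 3 were lower and 1 higher, where 5.37% passed, shares near those of the list. In VCaP 1 of 73 was lower on ACP (BMPR1B), where 0.82% of all genes passed, and 1 was higher (BAMBI, a decoy receptor) and 1 lower (BMPR1B) on plastic, where 0.89% passed. In VCaP the BMPR1B call on ACP was lost without VCaP ACP control replicate 1 or 2 or VCaP ACP stripped replicate 1 (log2 -1.40 to -1.16), and that on plastic without VCaP plastic control replicate 1 (log2 -1.61 to -1.38) and under RLE scaling. The BAMBI call was lost in both of these settings too (log2 3.21 to 4.72 without 1 library). In MDAPCa2a 1 of 63 was called where 1.58% of all genes were, BMP8B, which was higher, and the call was lost without any 1 of the 4 libraries (log2 2.18 to 3.71).

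The surface was compared in stripped medium, without plastic control libraries, and in control medium. In stripped medium none of these genes passed with edgeR in LNCaP (8 tested, where 6.12% of all genes passed), VCaP (9 tested, 0%) or MDAPCa2a (8 tested, 0.00734%). In LNCaP, TGFBR2 and PMEPA1 had an unadjusted p below 0.05, with 0 called by DESeq2. PMEPA1 was at 33.4 and 34.5 CPM on plastic and at 56.4 and 64.9 CPM on ACP, without overlap (log2 0.86 ± 0.38, adjusted p 0.179). In VCaP 0 had an unadjusted p below 0.05, with 0 called by DESeq2. In MDAPCa2a, TGFB1, SMAD7, SKIL and ID1 reached an unadjusted p below 0.05, with SKIL called by DESeq2. SKIL was at 24.3 and 37.1 CPM on plastic and at 58.2 and 54.3 CPM on ACP (log2 0.97 ± 0.27, adjusted p 0.230), and TGFB1 at 1.20 and 1.01 CPM and then at 2.09 and 3.37 CPM (log2 1.39 ± 0.41, adjusted p 0.241). For both genes the ACP libraries lay above the plastic ones. The interaction of surface and serum in LNCaP gave 0 of 8 with edgeR, where 0.307% of all genes passed, with 2 (TGFBR2 and PMEPA1) at an unadjusted p below 0.05 and 0 called by DESeq2.

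Among the further pathway genes, LNCaP in stripped medium had more BMPR1B and FN1 on ACP than on plastic and less LTBP4 and COL1A1, 4 of 66 tested, where 6.12% of all genes passed, about the same share. FN1, which encodes the matrix protein fibronectin, had a mean of 327 CPM on plastic and 1518 CPM on ACP (log2 2.25 ± 0.33, adjusted p 0.00429), and BMPR1B one of 3.48 and 14.0 CPM (log2 2.05 ± 0.28, adjusted p 0.00350). Both calls were lost without LNCaP plastic stripped replicate 1 (log2 2.13 to 2.33 for FN1 and 1.77 to 2.30 for BMPR1B over the fits without 1 library). With edgeR 0 of 73 passed in VCaP, where 3 reached an unadjusted p below 0.05 and DESeq2's count was 0, and 0 of 63 in MDAPCa2a, where 13 reached it and DESeq2's count was 2 (SMAD1 and SMAD9).

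In control medium, RWPE on ACP had less PMEPA1 and more ID1 and ID3 than on plastic. PMEPA1 was at 128 and 199 CPM on plastic and at 23.9 and 25.5 CPM on ACP (log2 -2.69 ± 0.23, adjusted p 4.65e-04; -2.98 to -2.34 without 1 library). ID1 was at 160.0 and 308 CPM and then at 658 and 577 CPM (log2 1.43 ± 0.28, adjusted p 0.0241), and ID3 at 43.9 and 77.1 CPM and then at 212 and 178 CPM (log2 1.72 ± 0.30, adjusted p 0.0163). No libraries overlapped for the 3 genes, which are 3 of 8 tested, where 4.16% of 14293 genes passed. The median log2 difference was -0.51 over the 8 genes and 0.03 over all genes. The calls of all 3 were lost without either ACP control library, those of ID1 and ID3 also without RWPE plastic control replicate 1, and in the fit of all lines ID1 and ID3 did not pass. The summed liver markers given above were 13.2 to 14.2 CPM on plastic and at most 0.594 CPM in the other RWPE libraries, and their part in these differences was not tested.

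The same comparison gave 0 of 8 in LNCaP, where 12.6% of all genes passed, and 0 of 9 in VCaP, where 0.0448% passed. With edgeR 0 had an unadjusted p below 0.05 in either line, and DESeq2 called 0 in both. PMEPA1 was at 189 and 152 CPM on plastic and at 104 and 116 CPM on ACP in LNCaP (log2 -0.53 ± 0.37) and at 1249 and 1523 CPM and then 1027 and 1327 CPM in VCaP (log2 -0.17 ± 0.24). Whether the effect in RWPE differs from that in the other lines was not tested. Of the further pathway genes in RWPE, 3 of 71 were higher (ITGB8, SMAD6 and ATOH8) and 4 lower (THBS1, TGIF1, CTGF and FN1), where 4.16% of all genes passed. SMAD6, an inhibitor that acts mainly on BMP signals, had a mean of 0.350 CPM on plastic and 1.99 CPM on ACP (log2 2.52 ± 0.54, adjusted p 0.0331), and the matrix gene FN1 271 and 81.7 CPM (log2 -1.70 ± 0.32, adjusted p 0.0197). The SMAD6 call was lost without any 1 of the 4 libraries (log2 1.91 to 3.62) and the FN1 call without RWPE plastic control replicate 2 or either ACP control library (log2 -2.15 to -1.04). In LNCaP 4 of 66 were lower and 0 higher, where 12.6% of all genes passed, and in VCaP 0 of 73 passed with edgeR, 13 reached an unadjusted p below 0.05, with 1 called by DESeq2 (FN1).

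**Figure D5:**
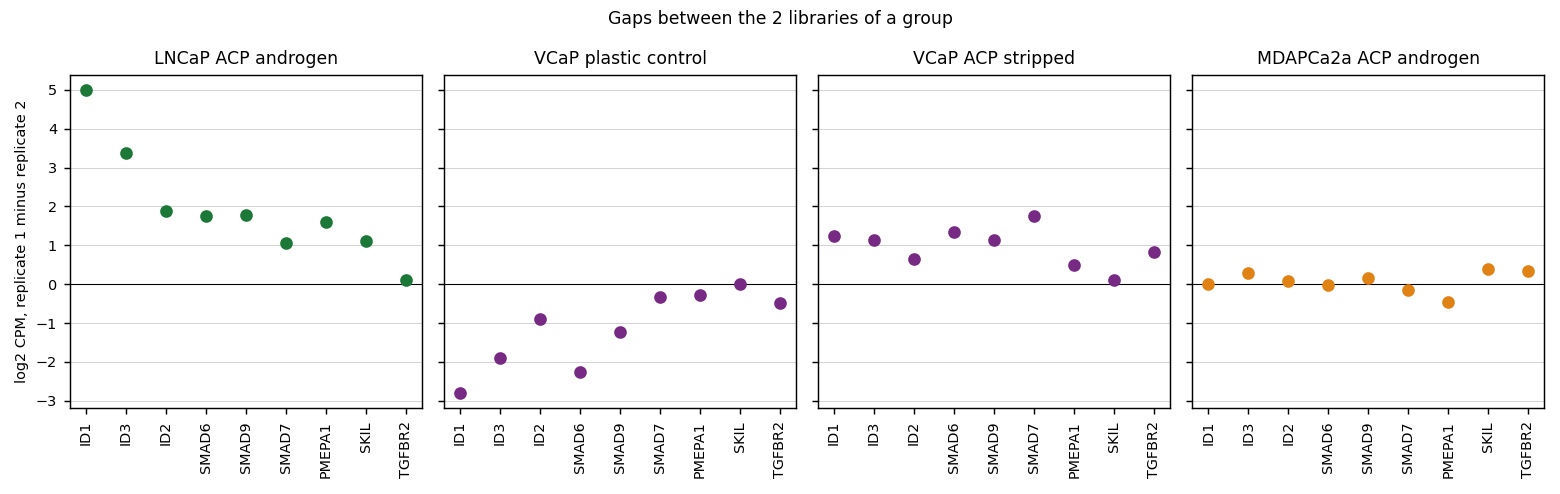
Log2 CPM of replicate 1 minus replicate 2 for 9 genes in 4 groups of 2 libraries. The widest gap is that of ID1 in LNCaP ACP androgen, the gap is -2.80 for ID1 in VCaP plastic control, and in MDAPCa2a ACP androgen the 9 gaps run from -0.45 for PMEPA1 to 0.40 for SKIL.

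In several groups the libraries were far apart in some of the BMP targets. In LNCaP ACP androgen, replicate 1 held 32.4-fold more ID1 and 10.4-fold more ID3 than replicate 2. ID2, SMAD6 and SMAD9, other genes induced by BMP signals or part of them, were 3.71-fold, 3.38-fold and 3.47-fold higher there in replicate 1, at 84.7, 10.5 and 38.9 CPM. Of 2 other genes tied to BMP signals, HEY1 differed by 1.54-fold, with 14.1% of genes at least as far apart, and BAMBI was at 43.7 and 44.5 CPM, with 93.1% at least as far apart. These genes were set beside ID1 and ID3 after their values were seen. Of 12469 genes averaging 1 CPM or more in this group, 0.016% had a gap as large as that of ID1 and 0.0962% one as large as that of ID3. TGFBR2 differed by 1.08-fold between these libraries. In VCaP plastic control it was replicate 2 that held 6.98-fold more ID1, 3.70-fold more ID3 and 4.86-fold more SMAD6. In VCaP ACP stripped, replicate 1 held 3.37-fold more SMAD7 and 2.35-fold more ID1. There 1.69% and 5.16% of genes were at least as far apart. This share was 6.26% for ID3, 3.95% for SMAD6, 6.56% for SMAD9, 10.2% for ID4, 20.5% for ID2, 30.4% for HEY1 and 37.8% for BAMBI. ATOH8, a further BMP target, was 14.3-fold higher in replicate 2 of VCaP plastic control (0.138% of genes). In VCaP ACP stripped ATOH8 was 3.96-fold higher in replicate 1 (1.16%). In LNCaP ACP stripped, ID1 was 2.00-fold and ID3 1.94-fold higher in replicate 1, with 0.819% and 1.00% at least as far apart. ID2 and BAMBI were 1.24-fold and 1.37-fold higher there (25.6% and 10.8%). SMAD6, SMAD9 and HEY1 were 1.02-fold, 1.17-fold and 1.09-fold higher in replicate 2 of that group (89.4%, 39.2% and 65.8%). TGFBR2 was 2.02-fold higher in replicate 2 as well (0.827%). Replicates have no order, and what sets these libraries apart was not tested.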

How the data were processed

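RNA in 34 libraries of 4 human prostate cell lines was sequenced and counted per gene. The values are the authors' deposited counts, whole-number reads per gene for 26336 genes and 34 libraries in 1 table. STAR, HTSeq and the build hg19 are named in the submitters' processing notes, with no version or role, while for annotation and strand the setting is not given in the sources used here. Reads of overlapping genes can therefore not be told apart. All columns matched a sample by name, leaving 0 unmapped.

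Samples were grouped by the labels' line, surface and medium. For each line, edgeR 4.0.16 (R 4.3.3, limma 3.58.1) was fitted to that line's libraries, and comparisons between lines and of androgen effects used a fit of all 34 libraries, so that 33 comparisons were made. TMM scaling, edgeR's filterByExpr with a minimum count of 10 and the quasi-likelihood F test were used, with Benjamini-Hochberg adjustment over all genes tested and a threshold of 0.05. A gene removed by the filter was not tested. Residual degrees of freedom were 4 for RWPE, VCaP and MDAPCa2a, 5 for LNCaP and 17 for the fit of all lines. Each standard error is the log2 difference over the square root of F. CPM use TMM library sizes over all libraries. The limit of a count of 0 was taken as 3 reads. The fits were tested on simulated data.

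All 9 genes are named. For each, the 2 genes with the highest Pearson r of log2 CPM (prior count 1) over 17 group means are named, among genes with a highest group mean of at least 5 CPM. Of 88 other genes of the pathway, up to 3 with the smallest adjusted p are named with values in a comparison, and others by symbol within their counts. ID2, ID4, SMAD6, SMAD9, HEY1, ATOH8 and BAMBI were set beside ID1 and ID3 after their values were seen. This was done for replicates and, for some of them, for the lines on plastic. The genes and lists were chosen with earlier results of these data known. Promoter windows of 250 bases came from RefSeq (GRCh38.p14), where all 9 genes matched by symbol. Alternatives were DESeq2 1.42.0, RLE scaling, no count filter, the replicate number as a block, the fit of all lines, and leaving out 1 library at a time.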

Additional observations from a re-analysis of the deposited data

Results flagged for a closer look

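The androgen effect on ACP differed between lines by the interaction test (edgeR, adjusted p over all genes) for 2 genes. For PMEPA1 it was lower by 1.74 on the log2 scale (log2 -1.74, adjusted p 0.0119) in VCaP than in LNCaP and lower by 2.64 (log2 -2.64, adjusted p 0.00168) in MDAPCa2a than in LNCaP. For SMAD7 it was log2 -2.37 (adjusted p 0.00489) for VCaP minus LNCaP and log2 -1.92 (adjusted p 0.0236) for VCaP minus MDAPCa2a. These SMAD7 differences were log2 -1.25 and -0.76 without VCaP ACP stripped replicate 1. The PMEPA1 difference between VCaP and LNCaP ran from log2 -2.32 to -0.73 over the fits without 1 library.

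In other cases every library of a line lay to one side and every library of another line to the opposite side, and the difference between the lines was not tested. Of these changes within a line, those of PMEPA1, ID1 and ID3 in LNCaP between androgen and control medium passed edgeR's threshold, and the others did not. Between androgen and control medium on ACP this held for PMEPA1, with log2 -0.40 in RWPE against 1.86 in LNCaP and 0.34 in VCaP, for ID1, with log2 -0.23 in RWPE against 4.34 in LNCaP, and for ID3, with log2 2.89 in LNCaP against -0.36 in VCaP. Between ACP and plastic in stripped medium it held for SMAD7, with log2 -0.31 in LNCaP and 0.58 in MDAPCa2a. The lower LNCaP androgen library had 4.12 CPM of ID1 and the higher LNCaP control library on ACP 4.11 CPM. Without LNCaP ACP androgen replicate 1, the LNCaP changes were log2 0.26 for ID1 and 0.36 for ID3.

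For stripped against control medium on plastic, 5 genes had log2 differences of opposite sign in LNCaP and MDAPCa2a, again without a test of the difference, and of these only PMEPA1 in LNCaP passed (adjusted p 0.00480), the other 9 differences having adjusted p of 0.145 to 0.674. The log2 differences in LNCaP and MDAPCa2a were -0.69 and 0.77 for TGFBR2, 0.44 and -0.50 for SMAD7, -2.27 and 0.22 for PMEPA1, 1.39 and -0.25 for ID1 and 2.03 and -0.54 for ID3. Between ACP and plastic in control medium BMP4 had log2 0.94 in LNCaP and -0.72 in VCaP, also not tested against each other, at levels of a few reads per library.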

How the results depend on the processing

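Of 80 calls of a gene in a comparison, 49 passed under every alternative and 0 changed direction. All 80 passed with RLE scaling, without the count filter and with DESeq2, 10 of 12 in the fit of all lines, and 31 of 80 were lost at least once when 1 library was left out. Depth limits BMP4 and TGFB2 most. The cause of the changes below was not tested.

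Without the count filter, the number of genes past the threshold went from 1 to 3 for androgen in LNCaP, from 2 to 4 in VCaP, from 0 to 4 and 0 to 1 for ACP against plastic in stripped medium in LNCaP and MDAPCa2a, from 0 to 3 for stripping on ACP in LNCaP and in VCaP, from 1 to 3 and 0 to 3 for stripping on plastic in LNCaP and VCaP, and from 0 to 1 for ACP against plastic control and for the surface by serum interaction in LNCaP. It went from 3 to 5 for MDAPCa2a against LNCaP on ACP with androgen and from 2 to 4 for the androgen effect in VCaP minus LNCaP. DESeq2 gave 2 for androgen in LNCaP, 1 for ACP against plastic in stripped MDAPCa2a, 1 and 2 for stripping in VCaP on ACP and plastic, and 4 for the androgen effect in VCaP minus LNCaP. The fit of all lines gave 2 for stripping in VCaP on each surface and 1 for RWPE on ACP against plastic.

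Leaving out 1 library gave counts of 1 to 5 for androgen in LNCaP, 0 to 1 in VCaP, 0 to 2 for androgen medium against control in RWPE, 1 to 5 in LNCaP and 0 in VCaP. For stripping they were 0 to 1 in VCaP on ACP, 0 to 1 in LNCaP on plastic and 0 to 2 in VCaP on plastic, and for RWPE on ACP against plastic 0 to 3. On ACP with androgen they were 2 to 4 for VCaP against LNCaP, 1 to 7 for MDAPCa2a against LNCaP and 2 to 5 for VCaP against MDAPCa2a. For the androgen effect they were 0 to 5 for VCaP minus LNCaP and 0 to 1 for VCaP minus MDAPCa2a.

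Same-numbered libraries share only a number: the correlation of their deviations from the group means ran from -0.56 to 0.66 over 14 comparisons, so the replicate numbers were not taken as a pairing. With the replicate number as a block the count was 1 in place of 0 for androgen medium against control in RWPE and 0 in place of 1 in VCaP, and all other counts were the same. The calls of BMPR1B and BAMBI for stripping in VCaP on plastic were also lost with it.

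Of 81 results named for other pathway genes, 50 passed under every alternative, 31 were lost under at least 1 and 0 changed direction.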

Other observations

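Other genes of the pathway separated the lines on plastic, each line in its own control medium, all by edgeR's quasi-likelihood test over all genes. TGFBI, a matrix protein gene induced by TGF-beta, had a mean of 345 CPM in RWPE against 1.01, 1.47 and 0.708 CPM in LNCaP, VCaP and MDAPCa2a, respectively, with a log2 difference from RWPE of -8.40 ± 0.52 for LNCaP (adjusted p 1.58e-12). CDKN2B, a cell cycle inhibitor gene induced by TGF-beta, was at 79.2 CPM in RWPE against 3.27 and 1.74 CPM in LNCaP and VCaP. INHBB showed the reverse, at 0.264 CPM in RWPE against 28.9 and 26.7 CPM in LNCaP and VCaP.

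BMP7, a BMP ligand, was at a mean of 80.4 CPM in VCaP, 0.358 CPM in LNCaP and 0.171 CPM in MDAPCa2a (log2 7.80 ± 0.41 for VCaP against LNCaP, adjusted p 1.26e-13). ENG, a TGF-beta co-receptor, was at 97.7 CPM in VCaP, 1.22 CPM in LNCaP and 0.769 CPM in MDAPCa2a. The matrix gene FN1 was at 10886 CPM in MDAPCa2a and 74.7 CPM in VCaP. ID4, which belongs to the same family as ID1 and ID3, was at 54.0 CPM in MDAPCa2a and 0.612 CPM in LNCaP (log2 6.45 ± 0.57, adjusted p 1.87e-09).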
